A study of Mus musculus with 2 samples.

Results

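Igf1, Nrg1, Hbegf, Osm, Hgf, Areg, Ereg and Gdf15 are 8 genes for secreted growth factors that macrophages are known to make, and they were taken by gene symbol from the 32285 genes of the deposited matrices. The data came from a subcutaneous mouse fibrosarcoma, a tumour of connective tissue lineage, implanted into WT C57BL/6 hosts with which it is syngeneic. The tissue of both samples was digested for 45 min at 37 °C. Dissociated tumour cells, freed of red blood cells, were passed over a magnetic column, which gave an iron-positive eluate (cells held by the column) and an iron-negative flowthrough. Each fraction gave 1 droplet library, counted as unique molecular identifiers (UMIs), each UMI standing for 1 captured RNA molecule. The labels give neither the age of the animals, nor how many tumours were pooled, nor which cells are tumour cells. With 1 library per fraction there is no replicate check: every interval below is an exact 95% interval that covers counting error only, and a difference between fractions is a difference between these libraries.

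As background, these factors act through a few receptor systems. Igf1 binds the receptor tyrosine kinase Igf1r and promotes growth and survival. Nrg1, Hbegf, Areg and Ereg belong to the epidermal growth factor family, are made as membrane-anchored precursors shed by proteases, and bind the ErbB receptors. Osm is an interleukin-6 family cytokine that signals through Osmr and the shared chain Il6st. Hgf is secreted as an inactive precursor and, once cleaved, binds Met. Gdf15 is a distant member of the transforming growth factor beta family that is induced in many stressed cells, and its receptor Gfral is known from the hindbrain. In macrophages, Igf1 is a familiar product of tissue-resident and wound-repair cells.

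Barcodes numbered 13668 in the iron-positive and 10124 in the iron-negative library, with totals of 129921053 UMIs (iron-positive) and 132796517 UMIs (iron-negative). After cells above a 15% mitochondrial share were removed, 12143 iron-positive and 9403 iron-negative cells remained, with a median of 7349 UMIs in iron-positive and 13017 UMIs in iron-negative cells. Cells gated on phagocyte markers (Csf1r, Adgre1, Cd68, C1qa and 6 others) made up 75.5% (9171 cells) of the iron-positive and 96.1% (9034 cells) of the iron-negative cells. Mesenchymal cells, gated on collagen and other fibroblast or fibrosarcoma genes, numbered 221 in the iron-positive and 58 in the iron-negative library. Endothelial cells numbered 566 iron-positive and 11 iron-negative, and pericytes or smooth muscle cells 105 iron-positive and 1 iron-negative, so their levels are given for the iron-positive library alone. Both libraries shared 85 barcode sequences. Markers of other classes moved with the fraction inside the phagocyte gate: the 10 mesenchymal markers summed to 74.8 CPM (UMIs of a gene per 1000000 UMIs of the class) in iron-positive and 23.2 CPM in iron-negative phagocytes, with 3 of 10 and 0 of 10 of them at 10 CPM or more. Neutrophil markers summed to 109 CPM in iron-positive and 48.0 CPM in iron-negative phagocytes with Ly6g at 0 in both, pericyte or smooth muscle markers to 23.9 CPM in iron-positive and 7.75 CPM in iron-negative, and B cell markers to 29.7 CPM in iron-positive and 45.7 CPM in iron-negative phagocytes; their part in the results was not tested. The 10 endothelial markers summed to 124 CPM in iron-positive and 89.1 CPM in iron-negative phagocytes, and the 10 phagocyte markers to 17973 CPM in iron-positive and 18853 CPM in iron-negative phagocytes.

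Promoter windows from RefSeq (GRCm38.p6, from 250 bases before to 50 bases after a start site) were on hand for 4 of the 8 genes, in 6 windows. Those of Igf1, Gdf15 and Areg, the 3 members that stood at least 1.5-fold higher in iron-positive phagocytes, are shown 5′ to 3′ on the gene's own strand. The windows are Igf1 chr10:87860861-87861160 on the plus strand, Gdf15 chr8:70632407-70632706 on the minus strand and Areg chr5:91139349-91139648 on the plus strand. The Igf1 start site used by RefSeq lies 2846 bases inside the GENCODE gene, while those of Gdf15 and Areg equal the GENCODE start. Capitals mark matches to the 6 motifs searched on both strands.
Igf1: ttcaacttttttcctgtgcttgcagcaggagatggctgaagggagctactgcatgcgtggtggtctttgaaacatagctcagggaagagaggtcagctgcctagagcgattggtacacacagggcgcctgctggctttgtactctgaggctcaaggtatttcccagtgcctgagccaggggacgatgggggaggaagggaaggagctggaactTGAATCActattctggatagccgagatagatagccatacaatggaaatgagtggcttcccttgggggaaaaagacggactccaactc
Gdf15: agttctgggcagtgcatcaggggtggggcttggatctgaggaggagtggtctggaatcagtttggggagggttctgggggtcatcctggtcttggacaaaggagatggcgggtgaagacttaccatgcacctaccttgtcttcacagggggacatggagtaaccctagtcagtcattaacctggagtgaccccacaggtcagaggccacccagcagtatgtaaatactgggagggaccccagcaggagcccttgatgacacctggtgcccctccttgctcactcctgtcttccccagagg
Areg: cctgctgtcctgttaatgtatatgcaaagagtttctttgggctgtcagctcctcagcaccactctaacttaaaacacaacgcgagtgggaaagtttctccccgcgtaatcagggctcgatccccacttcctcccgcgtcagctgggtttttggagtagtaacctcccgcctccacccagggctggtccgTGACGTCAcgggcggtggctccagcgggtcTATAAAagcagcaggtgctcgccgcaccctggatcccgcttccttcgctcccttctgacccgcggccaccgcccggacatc
The motifs were the cyclic AMP response element TGACGTCA, the AP-1 element TGANTCA, the antioxidant response element core TGACNNNGC, the E-box CACGTG, the TATA box TATAAA and the amino acid response element TGATGNAA. In the Areg window the cyclic AMP response element began at position -61 from the start site and a TATA box at -31. In the Igf1 window an AP-1 element began at -37, and the Gdf15 window held none of the 6. Of 32851 RefSeq windows of the same length, 1.79% held the cyclic AMP response element, 7.81% the AP-1 element, 12.4% the antioxidant response element core, 7.15% the E-box, 13.6% the TATA box and 3.97% the amino acid response element. A match describes letters in the window and is no evidence of binding.

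The loci are spread over 5 chromosomes, and coordinates are on mm10 with the GENCODE vM21 annotation, in which all 8 are protein-coding genes. Igf1 lies at chr10:87858265-87937042 on the plus strand, Nrg1 at chr8:31814551-32884029 on the minus strand and Gdf15 at chr8:70629393-70632456 on the minus strand. Osm lies at chr11:4236420-4241026 and Hgf at chr5:16553495-16620152, both on the plus strand, and Hbegf at chr18:36504927-36515805 on the minus strand. Ereg (chr5:91074622-91093646) and Areg (chr5:91139599-91148432) are neighbours on the plus strand of chromosome 5, 45952 bases apart with 0 protein-coding genes between them, and they differed in which cells held their transcripts, with Areg UMIs in phagocytes and mesenchymal cells and Ereg UMIs mostly in mesenchymal cells.

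Across cell classes the name macrophage growth factor held for some of the 8 genes and not for others. Igf1, Osm, Nrg1 and Hgf were at their highest class level in phagocytes in at least 1 library, whereas Hbegf was highest in endothelial cells and Areg and Ereg were higher in mesenchymal cells than in phagocytes of the same library. Gdf15 reached 105 CPM (91.3 to 119) in iron-positive pericytes or smooth muscle cells, above the 70.0 CPM (68.3 to 71.7) of iron-positive phagocytes. All levels are compared within a gene, between classes, on the scale of CPM of the class total.

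**Figure D1:**
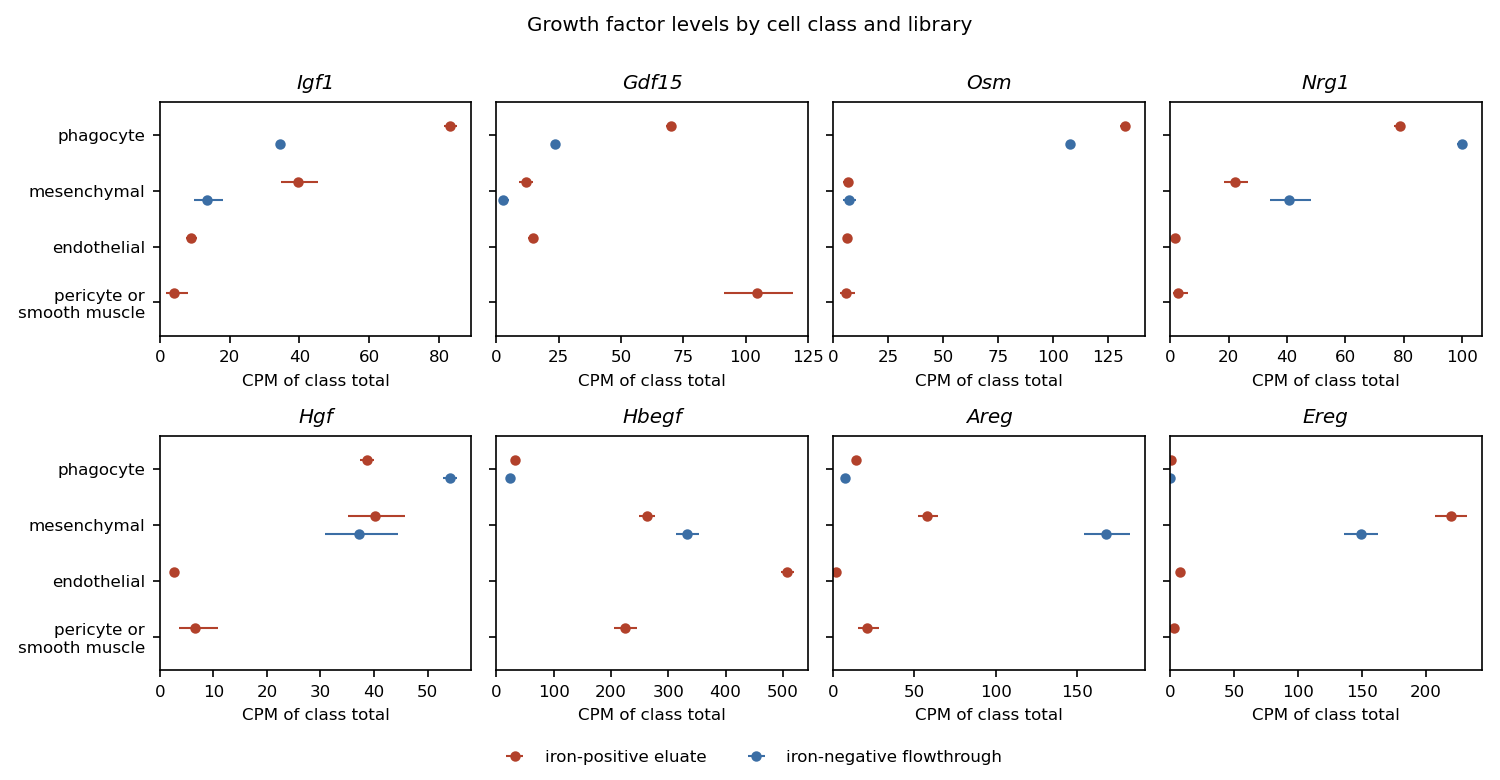
Level of each growth factor gene (x axis, CPM of the class total, linear and starting at 0) by cell class (y axis) in the iron-positive eluate (red, upper point) and the iron-negative flowthrough (blue, lower point), with exact 95% counting intervals; classes under 50 cells in a library are left out. Hbegf peaked in endothelial cells at 508 CPM, Ereg in mesenchymal cells at 219 CPM in the iron-positive library, and Osm in phagocytes at 133 CPM in the iron-positive library.

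Igf1, the ligand of Igf1r, was found in phagocytes at 83.1 CPM (81.3 to 85.0; 7601 UMIs) in the iron-positive and at 34.4 CPM (33.4 to 35.5; 4314 UMIs) in the iron-negative library. Iron-positive phagocytes therefore held 2.41 times the iron-negative level, a log2 ratio of 1.27 (1.22 to 1.33). When each phagocyte was thinned to 3000 UMIs, 15.4% of iron-positive and 8.24% of iron-negative phagocytes had an Igf1 UMI. Without thinning, the shares were 24.6% of iron-positive cells at a median of 8801 UMIs and 18.7% of iron-negative cells at a median of 13262 UMIs. Endothelial cells of the iron-positive library, taken as a class with little Igf1, gave 2.48% at the same thinned depth (13.96% unthinned at a median of 13378 UMIs), so the phagocyte shares stood above that background.

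Gdf15, the stress-induced ligand of Gfral, showed the larger ratio of these 2 genes. It was at 70.0 CPM (6398 UMIs) in iron-positive and 23.4 CPM (22.6 to 24.3; 2932 UMIs) in iron-negative phagocytes, 2.99 times higher in the iron-positive library, with a log2 ratio of 1.58 (1.52 to 1.64). At 3000 UMIs per cell, 11.4% of iron-positive and 4.82% of iron-negative phagocytes had a Gdf15 UMI, against 3.84% of iron-positive endothelial cells. Its transcripts were concentrated in few cells: phagocytes with 5 or more Gdf15 UMIs held 64.0% of the UMIs in the iron-positive and 45.5% in the iron-negative library, and the highest cell had 147 UMIs in the iron-positive and 40 in the iron-negative library. With counts capped at 5 UMIs per cell, the log2 ratio was 1.25.

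Areg, a ligand of Egfr, was the third member past 1.5-fold in phagocytes, at a low level. It stood at 13.7 CPM (13.0 to 14.5; 1253 UMIs) in iron-positive and 7.30 CPM (6.83 to 7.79; 915 UMIs) in iron-negative phagocytes, a log2 ratio of 0.91 (0.78 to 1.03). Areg UMIs were found in 364 of 9171 iron-positive and 230 of 9034 iron-negative phagocytes, and the 20 highest cells held 30.8% of the UMIs in the iron-positive and 47.3% in the iron-negative library. With the phagocyte states described below weighted equally, the log2 ratio of Areg was 0.56, under 1.5-fold.

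The other measured members differed by less than 1.5-fold in phagocytes. Osm was at 133 CPM (12121 UMIs) in iron-positive and 108 CPM (13507 UMIs) in iron-negative phagocytes, a log2 ratio of 0.30 (0.26 to 0.33). Hbegf was at 33.2 CPM in iron-positive and 23.7 CPM in iron-negative phagocytes, a log2 ratio of 0.49 (0.41 to 0.56). Hbegf is also the member with the highest level in endothelial cells, whose markers were higher in iron-positive phagocytes. With 10% of each class total subtracted as free RNA, the log2 ratio of Hbegf in phagocytes was 0.07. At that setting Ereg in phagocytes fell to 0 CPM, and the part of free RNA in the Hbegf ratio was not tested.

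Nrg1 and Hgf lay on the other side, lower in the iron-positive library. Nrg1, a ligand of Erbb3 and Erbb4, was at 78.6 CPM (76.8 to 80.4; 7187 UMIs) in iron-positive and 99.8 CPM (98.0 to 102; 12507 UMIs) in iron-negative phagocytes, a log2 ratio of -0.34 (-0.39 to -0.30). Hgf, the ligand of Met, was at 38.7 CPM (3535 UMIs) in iron-positive and 54.1 CPM (6786 UMIs) in iron-negative phagocytes, a log2 ratio of -0.49 (-0.55 to -0.43). At 3000 UMIs per cell, 16.4% of iron-positive and 19.6% of iron-negative phagocytes had an Nrg1 UMI, and 10.2% of iron-positive and 14.5% of iron-negative phagocytes had an Hgf UMI. The endothelial share at that depth was 0.451% for each gene.

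Ereg, which binds Egfr and Erbb4, was close to absent from phagocytes, with 59 UMIs (0.645 CPM) in 9171 iron-positive and 40 UMIs (0.319 CPM) in 9034 iron-negative cells. Its thinned share of phagocytes, 0.277% in the iron-positive and 0.0717% in the iron-negative library, was below the 1.13% of iron-positive endothelial cells. That endothelial share is no measure of background, because 5 cells held 76.4% of the endothelial Ereg UMIs. Whether the Ereg UMIs in phagocytes are background was not tested. Ereg was left out of the count over phagocytes, which takes genes at 10 CPM or more in either library. Of the other 7 members, 3 differed by 1.5-fold or more, all higher in the iron-positive library. The same threshold was passed by 3.1% of the 7718 genes measured in phagocytes, 2.4% higher and 0.7% lower. The median log2 ratio was 0.49 over the 7 members and -0.11 over all 7718 genes. Relative to that gene median, the log2 ratio was 1.38 for Igf1, 1.69 for Gdf15 and 0.60 for Hbegf, which puts Hbegf just past 1.5-fold, and -0.23 for Nrg1 and -0.38 for Hgf.

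Among phagocytes, the level of each of the 7 measured members differed between marker-defined states. The 14 states were gates on fixed marker genes, none of them a member of the set. Each took phagocytes in the top 10% by its marker level that also had at least 3 state-marker UMIs. That minimum left some gates smaller, such as Nos2 with 6.56% of iron-positive and 5.47% of iron-negative phagocytes. The gates overlap: 38.5% of iron-positive and 30.1% of iron-negative phagocytes fell in 2 or more. The makeup differed between libraries. The Hmox1 state held 16.9% of iron-positive and 2.91% of iron-negative phagocytes, the Mmp12 Cd36 state 16.5% of iron-positive and 1.58% of iron-negative, the resident-like state (Cd209f, Cd209g, Cd163, Lyve1, Marco) 9.21% of iron-positive and 3.92% of iron-negative, and the Fcrls Cx3cr1 state 4.66% of iron-positive and 14.1% of iron-negative. The state with the highest level was the same in both libraries for 5 of the 7 measured members, namely Igf1, Nrg1, Hbegf, Hgf and Gdf15. The share of all genes with the same highest state in both libraries was not computed, so this count is a description only.

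**Figure D2:**
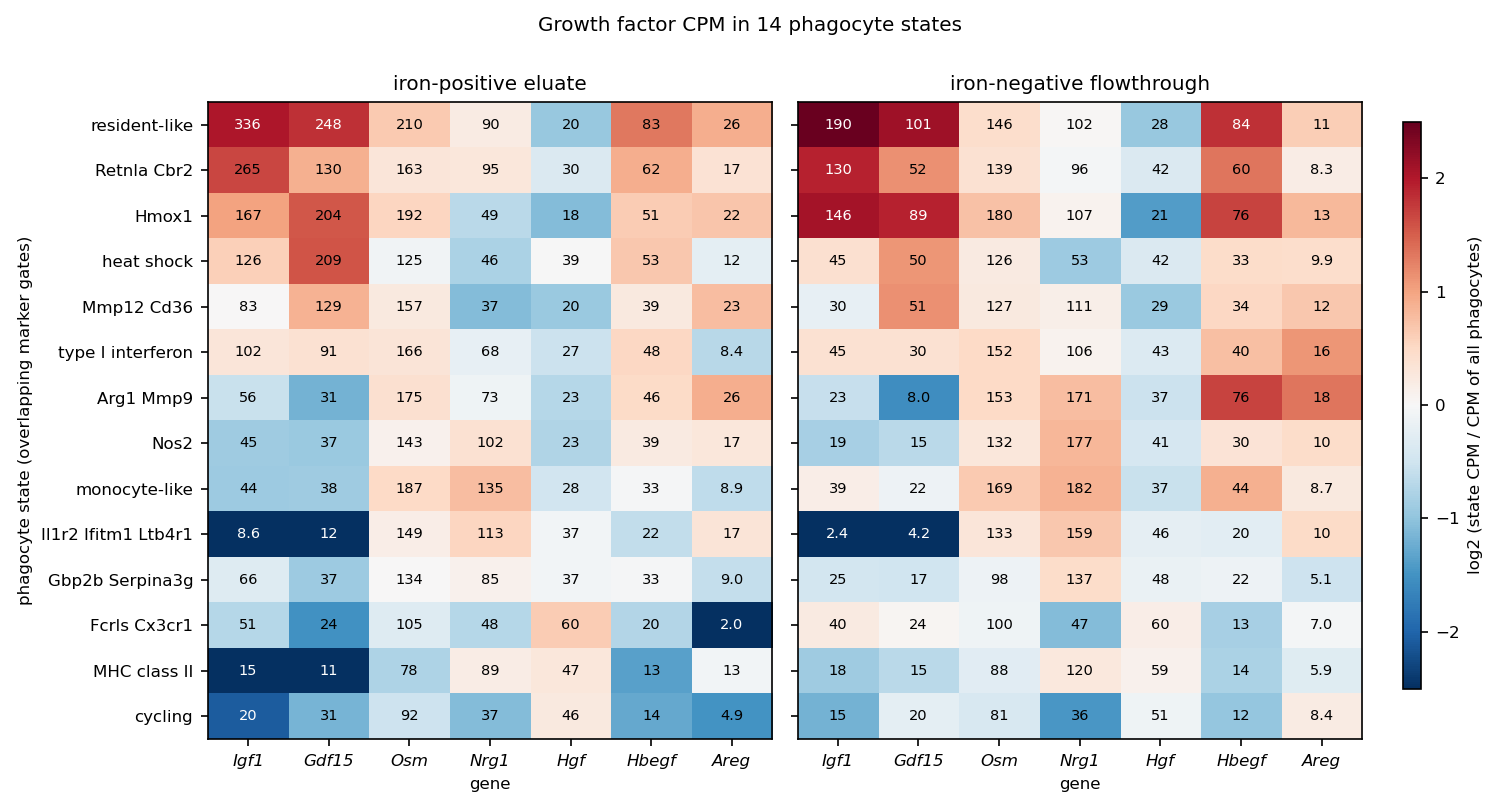
CPM (numbers in cells) of 7 growth factor genes in 14 overlapping phagocyte states in the iron-positive eluate (left) and the iron-negative flowthrough (right); colour is the log2 ratio of the state's CPM to that of all phagocytes of the same library. Igf1 and Gdf15 were highest in the resident-like state of both libraries, and Hgf in the Fcrls Cx3cr1 state of both.

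Igf1 was highest in resident-like phagocytes, at 336 CPM (325 to 348; 3285 UMIs) in the iron-positive and 190 CPM (178 to 203; 867 UMIs) in the iron-negative library. The next states were Retnla Cbr2 with 265 CPM and Hmox1 with 167 CPM in the iron-positive library, and Hmox1 with 146 CPM and Retnla Cbr2 with 130 CPM in the iron-negative library, where the intervals of these 2 states overlapped. The lowest was the Il1r2 Ifitm1 Ltb4r1 state, with 8.57 CPM (76 UMIs) in iron-positive and 2.42 CPM (22 UMIs) in iron-negative cells. The resident-like state stood above every other state in both libraries. The 845 resident-like iron-positive cells, 9.21% of the phagocytes, carried 3285 of 7601 Igf1 UMIs.

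Gdf15 followed a similar order at the top. It was at 248 CPM (238 to 258) in iron-positive and 101 CPM (92.2 to 111) in iron-negative resident-like phagocytes, and at 204 CPM (197 to 212) in iron-positive and 89.1 CPM (77.8 to 102) in iron-negative Hmox1 phagocytes. The heat shock state (Hspa1a, Hspa1b, Dnajb1) stood out in 1 library: it had 209 CPM (199 to 218) in iron-positive and 50.4 CPM (46.4 to 54.6) in iron-negative cells, a log2 ratio of 2.05. Of its cells, 17.9% of iron-positive and 1.76% of iron-negative ones also passed the Hmox1 gate. The resident-like gate was passed by 13.2% of iron-positive and 5.02% of iron-negative heat shock cells. The part of this overlap in the ratio was not tested. In the MHC class II state Gdf15 was down to 11.04 CPM in iron-positive and 14.6 CPM in iron-negative cells. Interval overlap left the order of heat shock and Hmox1 in the iron-positive library, and of resident-like and Hmox1 in the iron-negative library, unresolved.

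Because 38.0% of iron-positive and 18.6% of iron-negative resident-like cells also passed the Hmox1 gate, the 2 gates were crossed. Gdf15 was at 327 CPM in iron-positive and 149 CPM in iron-negative cells inside both gates. It was at 201 CPM in iron-positive and 90.9 CPM in iron-negative cells of the resident-like gate alone, at 163 CPM in iron-positive and 60.5 CPM in iron-negative cells of the Hmox1 gate alone, and at 31.4 CPM in iron-positive and 19.9 CPM in iron-negative cells of neither. Each gate was thus accompanied by a higher Gdf15 level with and without the other. Igf1 differed in this respect: it was at 338 CPM in iron-positive and 214 CPM in iron-negative cells inside both gates, and at 335 CPM in iron-positive and 185 CPM in iron-negative cells of the resident-like gate alone. In the Hmox1 gate alone, Igf1 was at 110 CPM in iron-positive and 113 CPM in iron-negative cells, a log2 ratio of -0.04 (-0.26 to 0.19), and in neither gate at 44.3 CPM in iron-positive and 27.3 CPM in iron-negative cells. For both genes the difference between libraries remained in cells of neither gate, with a log2 ratio of 0.70 for Igf1 and 0.66 for Gdf15.

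Osm, the gp130 cytokine, was found in every state, at levels from 77.9 to 210 CPM in the iron-positive and from 81.2 to 180 CPM in the iron-negative library. The resident-like state led in the iron-positive library at 210 CPM (201 to 219), with 146 CPM (135 to 158) in the iron-negative library. The Hmox1 state led in the iron-negative library, with 192 CPM in iron-positive and 180 CPM in iron-negative cells. Most neighbouring states in both orders had overlapping intervals.

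Nrg1 was highest in monocyte-like phagocytes (a gate on 5 markers, among them Ly6c2 and Plac8), at 135 CPM (125 to 144) in iron-positive and 182 CPM (172 to 191) in iron-negative cells. In the iron-negative library the Nos2 state at 177 CPM and the Arg1 Mmp9 state at 171 CPM overlapped it, whereas in the iron-positive library those states had 102 CPM for Nos2 and 72.6 CPM for Arg1 Mmp9. The Mmp12 Cd36 state differed by more: 36.8 CPM (570 UMIs) in iron-positive and 111 CPM (171 UMIs) in iron-negative cells, a log2 ratio of -1.60 (-1.84 to -1.34). In Hmox1 cells Nrg1 was at 49.5 CPM in iron-positive and 107 CPM in iron-negative cells. The ratio was near 0 in Fcrls Cx3cr1 cells (log2 0.04) and in Retnla Cbr2 cells (log2 -0.01).

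Hgf had another order of states than Igf1, with the resident-like and Hmox1 states at the low end. It was highest in Fcrls Cx3cr1 phagocytes at 59.8 CPM (53.2 to 67.0) in iron-positive and 60.5 CPM (57.0 to 64.1) in iron-negative cells, followed by MHC class II cells at 46.8 CPM in iron-positive and 58.6 CPM in iron-negative cells. In the iron-negative library the intervals of these states overlapped, and with states taken at the top 5% the MHC class II state was the highest there. It was lowest in Hmox1 cells at 18.3 CPM in iron-positive and 20.7 CPM in iron-negative cells. At the top state the 2 libraries did not separate, with a log2 ratio of -0.01 (-0.21 to 0.17).

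Hbegf, the heparin-binding ligand of Egfr and Erbb4, was highest in resident-like phagocytes at 83.0 CPM (77.4 to 88.9) in iron-positive and 83.9 CPM (75.7 to 92.8) in iron-negative cells, levels that overlapped between libraries. In the iron-negative library the Arg1 Mmp9 state at 76.1 CPM and the Hmox1 state at 76.0 CPM were within the interval of the top state, and in the iron-positive library these had 46.3 CPM for Arg1 Mmp9 and 51.2 CPM for Hmox1. Areg was at 25.9 CPM in resident-like and 25.6 CPM in Arg1 Mmp9 cells of the iron-positive library, and at 11.2 CPM in resident-like and 18.5 CPM in Arg1 Mmp9 cells of the iron-negative library. Its lowest value was 2.01 CPM (10 UMIs) in Fcrls Cx3cr1 cells of the iron-positive library.

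Comparing the libraries state by state sets aside how many cells each state held, but not which other gates those cells also passed. Nor does it set aside depth, because the minimum count of state-marker UMIs asks for a higher marker level in cells with fewer UMIs. Phagocytes had a median of 8801 UMIs in the iron-positive and 13262 UMIs in the iron-negative library. The part of this depth difference in the state ratios was not tested. Igf1 was higher in the iron-positive library in 13 of 14 states, with an interval above 0 in 12 and a ratio of at least 1.5-fold in 9. Gdf15 was higher in 13 of 14 states and at least 1.5-fold higher in 12. The exception for both was the MHC class II state, with a log2 ratio of -0.31 for Igf1 and -0.40 for Gdf15. Nrg1 was lower in the iron-positive library with an interval below 0 in 11 of 14 states, at least 1.5-fold lower in 6, and above 0 in 2 by no more than 0.04. Hgf was below 0 in all 14 states, with the interval below 0 in 9. Osm was above 0 in 12 of 14 states and never reached 1.5-fold, and Hbegf was split, with 9 above 0 and 5 below. Areg was above 0 in 11 of 14 states, and its log2 ratio ran from -1.74 in Fcrls Cx3cr1 to 1.20 in resident-like cells. The states share cells, so these are counts of overlapping gates and not of independent groups. Over all phagocytes, 1920 of the 7718 measured genes had a log2 ratio above 0. Most genes thus lay lower in the iron-positive library, as Nrg1 and Hgf did. By state, the share of all genes above or below 0 was not computed.

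**Figure D3:**
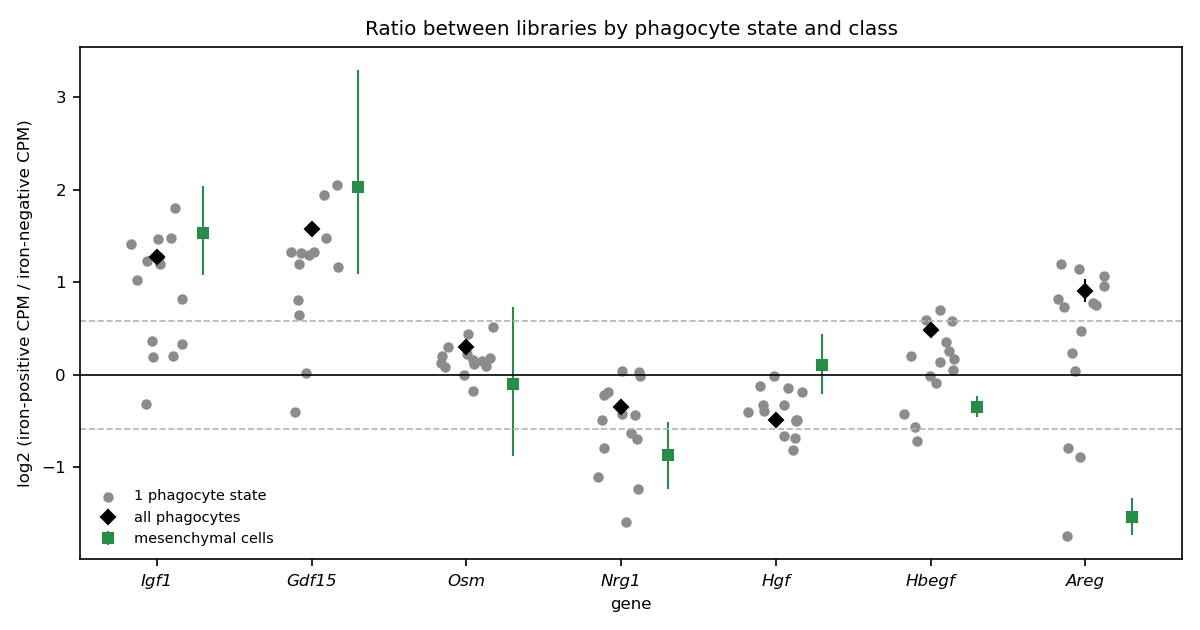
Log2 ratio of iron-positive to iron-negative CPM (y axis) for 7 growth factor genes in each of 14 phagocyte states (grey points, spread sideways for visibility), in all phagocytes (black diamonds) and in mesenchymal cells (green squares), with exact 95% counting intervals on the last 2; dashed lines mark 1.5-fold. Igf1 and Gdf15 lie above 0 in 13 of 14 states, and Areg is at 0.91 in phagocytes but -1.53 in mesenchymal cells.

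Detection of gene pairs in single cells drew on the same phagocytes and UMIs as the state levels. Pairs within a state were not counted separately. At 3000 UMIs per cell, 28.7% (26.1 to 31.5) of iron-positive phagocytes with an Igf1 UMI also had a Gdf15 UMI, against 8.21% (7.53 to 8.92) of those without. In the iron-negative library 13.6% (11.2 to 16.4) of cells with Igf1 and 4.02% (3.60 to 4.49) of cells without it had Gdf15. Hbegf was likewise more frequent in cells with Igf1 than in cells without it, at 15.4% and 6.51% in the iron-positive and 14.3% and 5.18% in the iron-negative library. Hgf was less frequent in cells with Igf1, at 5.92% with and 11.04% without in the iron-positive library and at 10.9% with and 14.9% without in the iron-negative library. Nrg1 was found in 18.2% of iron-positive cells with Igf1 and 16.04% without, and in 21.6% of iron-negative cells with Igf1 and 19.4% without, so the intervals overlapped in both libraries.

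**Figure D4:**
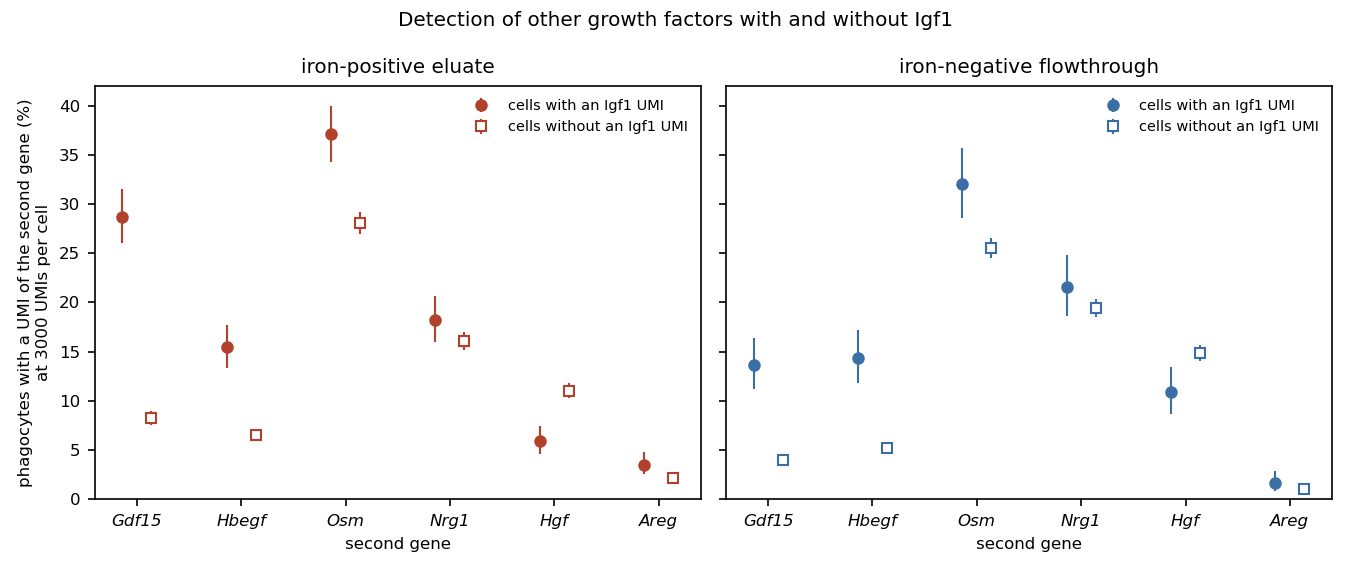
Share of phagocytes with a UMI of a second growth factor gene (y axis, percent, with exact 95% intervals) among cells with (filled circles) and without (open squares) an Igf1 UMI, each cell thinned to 3000 UMIs, in the iron-positive eluate (left) and the iron-negative flowthrough (right). Gdf15 was seen in 28.7% of iron-positive cells with Igf1 and 8.21% without, and Hgf shows the opposite order in both libraries.

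Over the 28 state-by-library groups, the genes most like each member were ranked by Pearson's r of log2(CPM + 1), a description over groups that share cells and library totals. Igf1 was most like Pmp22 (r = 0.96), a membrane protein gene best known from peripheral myelin, followed by Plekhm1, Gas6, a ligand of the TAM receptors that take part in apoptotic cell uptake, Wwp1 and Mcoln2. Gdf15 was most like Mylip (0.92), a ubiquitin ligase that degrades the LDL receptor, then Pmp22 (0.92) and Igf1 itself (0.91), then Kif3a and Lipa, the lysosomal acid lipase gene. Hbegf was most like Tmem8 (0.96) and F13a1 (0.95), which encodes the A chain of coagulation factor XIII, and then Gja1, Ccl6 and Zfp36l1. Osm was most like Pim1 (0.92), a kinase gene induced by cytokines through STAT factors, then Mtmr3, Trib1, Zfp36l1 and Por. Nrg1 was most like Fam117b (0.89), Syk, Zfp516, Antxr2 and Ric1, Hgf like Extl3 (0.95), Lpcat2, Lair1, Cyp51 and Olfm1, and Areg, with weaker likeness, like Ecm1 (0.73), Chchd10, Tmem87b, Klhl24 and Htatip2.

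In the mesenchymal cells Ereg, Hbegf and Areg were each above their own level in phagocytes of the same library. Ereg was at 219 CPM (207 to 232; 1239 UMIs in 102 of 221 cells) in iron-positive and 149 CPM (136 to 163; 492 UMIs in 38 of 58 cells) in iron-negative mesenchymal cells, a log2 ratio of 0.56 (0.41 to 0.71). At 3000 UMIs per cell, 25.1% of iron-positive and 32.7% of iron-negative mesenchymal cells had an Ereg UMI, far above the phagocyte share. Hbegf was at 262 CPM (1483 UMIs) in iron-positive and 333 CPM (1101 UMIs) in iron-negative mesenchymal cells, and Areg was at 58.0 CPM (328 UMIs) in iron-positive and 168 CPM (556 UMIs) in iron-negative mesenchymal cells. By summed CPM, Ereg was higher and Areg lower in the iron-positive library. The opposition was not seen in every measure: the thinned share of cells with Areg, 8.20% of iron-positive and 23.6% of iron-negative, ran the same way as that of Ereg, and without the highest 5% of UMIs the log2 ratio was 0.08 for Ereg and 0.16 for Areg.

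The mesenchymal class was split by Sox9 and Grem1, a transcription factor of cartilage and progenitor cells and a BMP antagonist. The 114 iron-positive and 47 iron-negative cells with 3 or more UMIs of these genes together had Areg at 70.6 CPM in iron-positive and 178 CPM in iron-negative cells, against 16.7 CPM in the remaining 107 iron-positive and 10.4 CPM (2 UMIs) in the remaining 11 iron-negative cells. Hbegf was at 289 CPM in iron-positive and 348 CPM in iron-negative cells with Sox9 or Grem1, and at 175 CPM in iron-positive and 88.6 CPM in iron-negative cells without. Ereg did not follow this split, with 231 CPM in iron-positive and 135 CPM in iron-negative cells with Sox9 or Grem1 and 180 CPM in iron-positive and 380 CPM in iron-negative cells without, where 2 of the 11 iron-negative cells held all 73 UMIs. Cells with Sox9 or Grem1 were also deeper, at a median of 29221 UMIs in iron-positive and 61486 in iron-negative cells, against 6518 in iron-positive and 13754 in iron-negative cells without.

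Of the 7 members at 10 CPM or more in mesenchymal cells, 4 differed by 1.5-fold or more between the libraries, where 19.5% of 8211 genes did, 9.58% higher and 9.9% lower in the iron-positive library. Igf1 (39.6 CPM in iron-positive and 13.6 CPM in iron-negative cells) and Gdf15 (11.7 CPM in iron-positive and 2.72 CPM in iron-negative cells) were higher in the iron-positive library. The makeup of the class differed as well: its own 10 markers summed to 21554 CPM in iron-positive and 10094 CPM in iron-negative mesenchymal cells, pericyte or smooth muscle markers to 934 CPM in iron-positive and 411 CPM in iron-negative cells, and endothelial markers to 140.1 CPM in iron-positive and 57.2 CPM in iron-negative cells, and their part in these ratios was not tested. Areg (log2 ratio -1.53) and Nrg1 (22.3 CPM in iron-positive and 40.8 CPM in iron-negative cells, log2 ratio -0.87) were lower. Depth differed with the fraction, at a median of 19168 UMIs in iron-positive and 50512 in iron-negative mesenchymal cells. Without the cells in the highest 5% of UMIs, which left 146 iron-positive and 14 iron-negative mesenchymal cells, the log2 ratio was -1.33 for Igf1, -0.40 for Gdf15 and 0.16 for Areg. With cells thinned to 1000 UMIs, the log2 ratio was -0.017 for Igf1, -0.27 for Gdf15 and -2.48 for Areg. Hgf, at 40.2 CPM in iron-positive and 37.2 CPM in iron-negative mesenchymal cells, did not separate the libraries by summed CPM. With cells thinned to 1000 UMIs, the log2 ratio of Hgf was -0.78. Osm was under 10 CPM in both libraries.

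Hbegf had its highest class level in endothelial cells. Endothelial cells of the iron-positive library had 508 CPM (497 to 519; 7832 UMIs), and 67.0% of them had an Hbegf UMI at 3000 UMIs per cell, against 7.88% of iron-positive and 5.94% of iron-negative phagocytes. Pericytes or smooth muscle cells had 225 CPM (205 to 246), with 39.0% of cells at the same depth. The other members were low in endothelial cells, at 1.43 CPM for Areg, 1.75 CPM for Nrg1, 2.72 CPM for Hgf, 6.35 CPM for Osm, 7.97 CPM for Ereg, 9.08 CPM for Igf1 and 14.5 CPM for Gdf15. Of the 123 endothelial Ereg UMIs, 76.4% came from 5 cells. Gdf15 was found in 22.0% (14.3 to 31.4) of 100 thinned pericytes or smooth muscle cells.

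Summed over all kept cells, the ratios also carry the share of each class in the library. Hbegf was at 123 CPM in the iron-positive and 35.3 CPM in the iron-negative library, a log2 ratio of 1.80 against 0.49 within phagocytes. Ereg was at 13.6 CPM in the iron-positive and 4.78 CPM in the iron-negative library, a log2 ratio of 1.51. Nrg1 was at 60.2 CPM in the iron-positive and 97.0 CPM in the iron-negative library, and Hgf at 31.9 CPM in the iron-positive and 53.1 CPM in the iron-negative library, with log2 ratios of -0.69 for Nrg1 and -0.73 for Hgf. Counting Igf1 (0.99) and Gdf15 (1.42), 6 of 8 members differed by 1.5-fold or more, where 13.3% of 8241 genes did, 9.29% higher and 3.98% lower in the iron-positive library. Osm was at 102 CPM in the iron-positive and 104 CPM in the iron-negative library.

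Egfr and Osmr were higher in mesenchymal cells and pericytes or smooth muscle cells than in phagocytes, per UMI of the class, while other receptor genes were also found in phagocytes. Egfr, the receptor of Hbegf, Areg and Ereg, was at 65.1 CPM (368 UMIs) in iron-positive and 46.0 CPM (152 UMIs) in iron-negative mesenchymal cells and at 18.2 CPM in iron-positive pericytes or smooth muscle cells, against 2.12 CPM in iron-positive and 0.463 CPM in iron-negative phagocytes. The Nrg1 receptors were scarce in phagocytes and mesenchymal cells. Erbb3 was at 1.98 CPM (181 UMIs) in iron-positive and 1.72 CPM (216 UMIs) in iron-negative phagocytes. In mesenchymal cells Erbb3 had 3 UMIs in the iron-positive and 0 UMIs in the iron-negative library. Erbb4 had 0 UMIs in every class of both libraries. At a limit of 3 counts, this allows up to 0.0328 CPM in iron-positive and 0.0239 CPM in iron-negative phagocytes. For mesenchymal cells it allows up to 0.531 CPM in iron-positive and 0.907 CPM in iron-negative cells. Erbb2, the co-receptor of both, was at 5.48 CPM in iron-positive and 4.84 CPM in iron-negative mesenchymal cells. It was at 4.28 CPM in iron-positive endothelial cells and 7.002 CPM in iron-positive pericytes or smooth muscle cells. In phagocytes Erbb2 was at 0.120 CPM in the iron-positive and 0.0558 CPM in the iron-negative library. Osmr was at 152 CPM in iron-positive pericytes or smooth muscle cells, 98.5 CPM in iron-positive and 51.7 CPM in iron-negative mesenchymal cells, 29.4 CPM in iron-positive endothelial cells and 0.809 CPM in iron-positive and 0.223 CPM in iron-negative phagocytes.

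**Figure D5:**
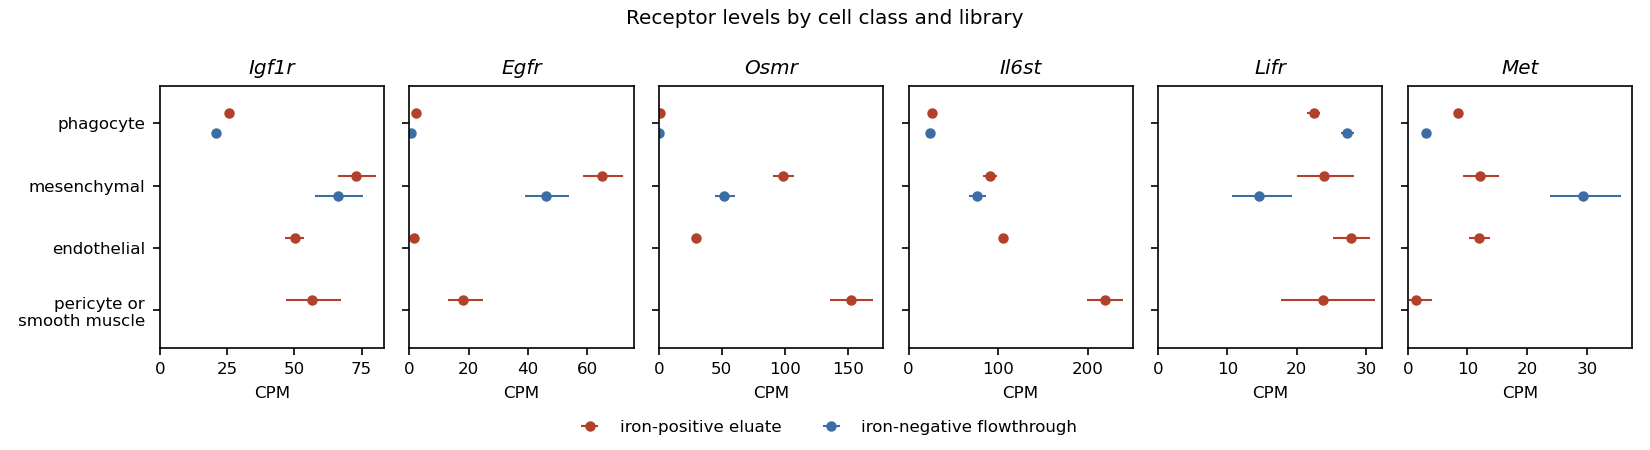
Level of 6 receptor genes (x axis, CPM of the class total, linear and starting at 0) by cell class (y axis) in the iron-positive eluate (red, upper point) and the iron-negative flowthrough (blue, lower point), with exact 95% counting intervals; classes under 50 cells in a library are left out. Egfr peaked in mesenchymal cells at 65.1 CPM in the iron-positive library and Osmr in pericytes or smooth muscle cells at 152 CPM, while both were near 0 in phagocytes.

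Igf1r was found in each of these classes, at 72.9 CPM in iron-positive and 66.2 CPM in iron-negative mesenchymal cells, 56.5 CPM in iron-positive pericytes or smooth muscle cells, 50.1 CPM in iron-positive endothelial cells and 25.9 CPM in iron-positive and 20.9 CPM in iron-negative phagocytes. Il6st, the shared signalling chain of Osm, was at 218 CPM in iron-positive pericytes or smooth muscle cells, 105 CPM in iron-positive endothelial cells, 90.4 CPM in iron-positive and 76.2 CPM in iron-negative mesenchymal cells and 25.9 CPM in iron-positive and 23.7 CPM in iron-negative phagocytes. Lifr, which pairs with Il6st for related cytokines, was at 22.4 CPM in iron-positive and 27.3 CPM in iron-negative phagocytes and 23.9 CPM in iron-positive and 14.5 CPM in iron-negative mesenchymal cells. Met, the Hgf receptor, was at 12.0 CPM (68 UMIs) in iron-positive and 29.3 CPM (97 UMIs) in iron-negative mesenchymal cells, 12.0 CPM in iron-positive endothelial cells and 8.41 CPM (769 UMIs) in iron-positive and 2.9998 CPM (376 UMIs) in iron-negative phagocytes. Gfral had 0 UMIs in every class of both libraries.

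Of 68 listed genes around these factors, 30 were measured in phagocytes, and 3 were at least 1.5-fold higher in the iron-positive library and 0 lower, where 2.4% of all 7718 genes were higher and 0.7% lower, with a median log2 ratio of -0.05 against -0.11 over all genes. All 3 belong to the insulin-like growth factor axis, of which 7 of 14 genes were measured. Igf2r, the receptor that clears the related ligand Igf2, was at 19.6 CPM in iron-positive and 10.4 CPM in iron-negative phagocytes. Igfbp3 was at 25.9 CPM in iron-positive and 0.790 CPM in iron-negative phagocytes, and Igfbp7 at 33.8 CPM in iron-positive and 1.29 CPM in iron-negative phagocytes, both genes of secreted binding proteins. Iron-positive endothelial cells held Igfbp3 at 2008 CPM and Igfbp7 at 4218 CPM, and the part of free or carried-over endothelial RNA in the phagocyte values was not tested. Igfbp4, another binding protein gene, was at 124 CPM in iron-positive and 180 CPM in iron-negative phagocytes (log2 ratio -0.54).

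In the remaining lists, 0 of the genes at 10 CPM or more in either library passed 1.5-fold in phagocytes. This count depends on the scaling: relative to the gene median log2 ratio of -0.11, Adam8 and Gas6 lie past 1.5-fold. Listed genes below that minimum, such as Met, were not counted. Of 8 shedding genes 5 were measured: the metalloprotease Adam8 was at 416 CPM in iron-positive and 286 CPM in iron-negative phagocytes (log2 ratio 0.54), while Adam17, the main sheddase of ErbB ligands, was at 131 CPM in iron-positive and 152 CPM in iron-negative phagocytes (-0.22), Adam9 at -0.20 and the Adam17 cofactor Rhbdf2 at -0.14. Of 7 genes of Hgf activation 2 were measured: Spint1, an inhibitor of Hgf-activating proteases, was at 48.1 CPM in iron-positive and 67.4 CPM in iron-negative phagocytes (-0.49), the same direction as Hgf, and Plau, the urokinase gene, was at 34.2 CPM in iron-positive and 35.5 CPM in iron-negative phagocytes. Stat3 (-0.13) and Socs3 (-0.10), a transducer and a feedback inhibitor of gp130 cytokines, stood near the median of all genes.

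The stress-response genes at 10 CPM or more differed by less than 1.5-fold between the libraries. Of 11 genes in the list of the Gdf15 receptor and stress response, 7 were measured in phagocytes, 0 passed 1.5-fold and the median log2 ratio was 0.01. Atf4, the integrated stress response factor, was at 205 CPM in iron-positive and 216 CPM in iron-negative phagocytes (-0.08), Mdm2, a p53 target, at 123 CPM in iron-positive and 113 CPM in iron-negative phagocytes (0.13), Nupr1 at 0.14 and Sesn2 at -0.05. Below the minimum level, Trib3, a target of that response, was at 3.89 CPM (356 UMIs) in iron-positive and 1.17 CPM (147 UMIs) in iron-negative phagocytes, a log2 ratio of 1.73 (1.45 to 2.02), and Chac1 had 17 UMIs in iron-positive and 7 UMIs in iron-negative phagocytes, a log2 ratio of 1.68 (0.39 to 3.25). Among other growth factors, 5 of 8 were measured: Pdgfa was at 30.4 CPM in iron-positive and 45.4 CPM in iron-negative phagocytes (-0.58), Pdgfb at 28.0 CPM in iron-positive and 39.5 CPM in iron-negative phagocytes (-0.49), Gas6 at 150 CPM in iron-positive and 105 CPM in iron-negative phagocytes (0.52) and Pdgfc at 28.0 CPM in iron-positive and 21.5 CPM in iron-negative phagocytes (0.38). Of the 7 other ErbB ligand genes (Egf, Tgfa, Btc, Epgn, Nrg2, Nrg3, Nrg4), 0 reached 10 CPM in phagocytes, and Btc was at 5.48 CPM (31 UMIs) in iron-positive and 24.5 CPM (81 UMIs) in iron-negative mesenchymal cells.

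In mesenchymal cells 43 of the 68 listed genes were measured, and 12 were at least 1.5-fold higher and 6 lower in the iron-positive library, where 9.58% of all 8211 genes were higher and 9.9% lower, with a median log2 ratio of 0.22 against -0.06 over all genes. The higher ones included 5 of the 9 genes of the oncostatin axis: Osmr, Lifr, Stat3, and Il6 and Il11, cytokines that also use Il6st. Il6st itself had a log2 ratio of 0.24, while Lif (-0.07), Clcf1 (-0.32) and Socs3 (-0.16) were below 0. Alternatives for depth were run for the members only, and some mesenchymal ratios of members turned sign there. Il6 was at 90.2 CPM in iron-positive and 48.1 CPM in iron-negative mesenchymal cells, and Il11 at 73.4 CPM in iron-positive and 17.5 CPM in iron-negative mesenchymal cells.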

How the data were processed

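The authors deposited 1 raw UMI count matrix per fraction (10x 3′ v3 kit, per the labels' protocols). The submitters' processing notes name Cell Ranger 3.1.0 and mm10, whereas the matrices carry 5.0.0 per the file headers; the release of the gene models used by the authors is not stated in these sources. From the deposited counts, barcodes with a mitochondrial share over 15% or under 200 genes were left out. Phagocytes needed 5 of 10 markers, at least 40 marker UMIs per 10000 and no other class; other classes needed 5 markers of 10 (4 of shorter lists), 10 per 10000 and fewer than 40 phagocyte-marker UMIs per 10000. These levels were set after marker values were seen. No doublet caller was run: cells with markers of phagocytes and another class (1.62% of iron-positive and 0.266% of iron-negative kept cells) or of 2 other classes (0.511% of iron-positive and 0% of iron-negative) were left unassigned, as were RNA-poor barcodes with phagocyte markers (8.66% of iron-positive and 2.02% of iron-negative) and cells of no class (5.90% of iron-positive and 0.702% of iron-negative). States took phagocytes with at least 3 state-marker UMIs and a marker level in the top 10%, weighting the libraries equally. UMIs were summed per class or state and divided by its total (CPM). Intervals are exact Poisson, Clopper-Pearson or, for ratios, conditional binomial. Log2 ratios add 0.5 UMIs to each count. Ratios were computed over all genes at 10 CPM or more in either library. The 8 members and all gene lists were chosen with earlier results of these data known. Beside the members, the receptors were named, though not each of them in every class. Of each list, up to 4 measured genes with the largest ratio in phagocytes were named. Names outside this rule (Trib3 and Chac1, and Btc, Il6, Il11, Stat3, Lifr, Lif, Clcf1 and Socs3 in mesenchymal cells) were chosen after their values were seen. The 5 genes most like each member were taken from 3957 genes at 50 CPM or more in a group. Alternatives varied filters, depth, scaling, free RNA, gates and state makeup; 4 were added after the data were seen. Python 3.11.15, numpy 2.4.6, scipy 1.17.1 and pandas 2.3.3 were used, and the ratio code was tested on simulated data.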

Additional observations from a re-analysis of the deposited data

Results flagged for a closer look

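Areg and Hbegf differed between the libraries in opposite directions in 2 cell classes, and the difference between classes was not tested. Areg had a log2 ratio of 0.91 in phagocytes and -1.53 in mesenchymal cells, and Hbegf had 0.49 in phagocytes and -0.34 in mesenchymal cells. Both positive and negative intervals lay clear of 0 by counting error. Without the highest 5% of UMIs the mesenchymal value of Areg was 0.16.

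Signal was also present in barcodes that no class comparison used. Those above the mitochondrial limit entered no comparison, and the RNA-poor barcodes and those of no class entered only the sums over all kept cells and, for RNA-poor barcodes, an alternative. Among barcodes above the mitochondrial limit, Igf1 was at 34.4 CPM in the iron-positive and 20.4 CPM in the iron-negative library, Hbegf at 61.5 CPM in the iron-positive and 21.9 CPM in the iron-negative library, and Gdf15 at 30.7 CPM in the iron-positive and 11.4 CPM in the iron-negative library. Among RNA-poor barcodes with phagocyte markers, Igf1 was at 107 CPM in the iron-positive and 34.2 CPM in the iron-negative library, and Gdf15 at 130.1 CPM in the iron-positive and 39.9 CPM in the iron-negative library. Among kept barcodes of no class, Osm was at 74.9 CPM in the iron-positive and 20.9 CPM in the iron-negative library, and Gdf15 at 169 CPM in the iron-positive and 15.2 CPM in the iron-negative library.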

How the results depend on the processing

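No paired analysis was possible because each fraction has 1 library, and no replicate could be left out for the same reason. In phagocytes the log2 ratio kept its sign under 16 of 16 alternatives for all 7 measured members, from 0.86 to 1.38 for Igf1, 1.03 (without the Hmox1 state, added after the data were seen) to 1.69 for Gdf15 and 0.56 to 1.10 for Areg. The alternatives with a minimum of 50 CPM or with no minimum only choose which genes are counted and cannot change a ratio. Hbegf ran from 0.01 with states weighted equally to 0.60. The number of members past 1.5-fold was 4 in mesenchymal cells and became 2 without the highest 5% of UMIs, 2 with cells thinned to 1000 UMIs and 1 at a minimum of 50 CPM. Mesenchymal log2 ratios turned sign for Igf1 (-1.33), Gdf15 (-0.40) and Areg (0.16) without the highest 5% of UMIs, which left 14 iron-negative cells. With cells thinned they turned sign for Igf1 (-0.017), Gdf15 (-0.27) and Hgf (-0.78), and with the mean of cell CPM for Hgf (-0.12). The cause of these changes was not tested. The highest phagocyte state was shared for 5 members, and for 3 with cells thinned. It was shared for 4 without the highest 5% of UMIs, for 4 with the mean of cell CPM and for 4 with states at the top 5%. Cell number limits the iron-negative library to phagocytes and 58 mesenchymal cells, and Ereg was close to absent from phagocytes.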

Other observations

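In T or NK cells, a class of 34 iron-positive and 17 iron-negative cells, Areg had 55 UMIs in 3 of the iron-positive cells and 0 UMIs in the iron-negative cells. Hgf and Nrg1 had 0 UMIs in T or NK cells of either library. Of the 4 genes with a promoter window, Hgf had the antioxidant response element core beginning 33 bases after its first start site, and the second Gdf15 window, at chr8:70632046-70632345 on the minus strand, had an E-box at position -83.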
